A study of Mus musculus with 8 samples.

Results

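The genes described here encode the microtubule system: 12 tubulins, 12 stathmins and microtubule-associated proteins, 7 subunits of dynein and dynactin, and 8 kinesin chains. These 39 genes were chosen by name from the 54532 genes of the deposited read-count table, with earlier results of these data known. All 39 passed the filter on low counts, which 16205 genes passed. RNA was sequenced from first molars of C57BL/6 mouse pups after the pulp had been taken out. Wild-type pups gave 4 libraries, numbered WT 2, 3, 4 and 5 as in the labels, and Wdr72-/- pups, bred from a purchased colony, gave another 4, KO 1, 3, 4 and 5. The labels name no further allele, transgene or agent in either group. Both groups carry the same age label, postnatal day 12, whereas the dissection protocol gives day 13, and the labels do not say whether a library is 1 pup or a pool. The p-values therefore speak of the spread among libraries, which may be technical. The stated purpose was to compare gene expression of maturation-stage ameloblasts, the enamel-forming epithelium, with and without WDR72, a protein of intracellular vesicles that enamel maturation requires.

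Microtubules are hollow polymers of alpha- and beta-tubulin dimers, nucleated by gamma-tubulin and growing at their plus ends. Stathmins bind free dimers and favour disassembly, structural microtubule-associated proteins stabilise the lattice, and plus-end proteins ride on growing tips. Dynein, with its cofactor dynactin, carries cargo toward the minus end, and most kinesins carry cargo toward the plus end. Tall secretory and resorbing cells such as ameloblasts use these tracks to move secretory vesicles, endosomes and lysosomes.

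Wdr72 was read at 173, 245, 327 and 227 CPM (reads per scaled library total) in WT 2, 3, 4 and 5 and at 102, 37.8, 24.9 and 15.8 CPM in KO 1, 3, 4 and 5. Every KO library was below every WT library, and the KO mean was 18.5% of the WT mean (exact two-sided permutation test over 70 arrangements, p = 0.0286, the smallest it can give), or 10.8% without KO 1, the KO library with the most Wdr72. Libraries held 17084475 to 21887462 counted reads, of which the 39 genes took 0.462% to 0.517%. Enamel markers were abundant in every library, with a summed level over 12 ameloblast genes of 53660 to 98026 CPM in WT and 60019 to 81539 CPM in KO. KO 5 correlated least with the others (mean r 0.965, against 0.980 to 0.983). Xist, the non-coding RNA of the inactive X chromosome, lay at 803, 839, 251 and 658 CPM in WT 2, 3, 4 and 5 and at 249, 191, 356 and 177 CPM in KO 1, 3, 4 and 5, so that WT 2, 3 and 5 stood above every KO library and WT 4 lay within the KO range.

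No microtubule gene passed an adjusted p of 0.05 by edgeR's quasi-likelihood test. Only 5 of the 16205 genes tested did (0.0309%), 2 with the higher mean in KO (0.0123%) and 3 with the lower (0.0185%). At an unadjusted p under 0.05, 12 of the 39 had a higher mean in KO and 1 a lower mean, where 15.7% of all genes tested passed that limit (8.70% higher in KO and 6.98% lower). In 7 of the 39 every KO library lay above every WT library in CPM, and in 2 every KO library lay below every WT library. Here and below, groups are said to overlap or not in CPM unless TPM is named. Over all genes tested, 10.9% had groups that did not overlap (5.50% higher and 5.44% lower). Without the low-count filter edgeR called 1 of the 39, Tubb3 (0.756% of all genes then tested). DESeq2 called 2 of the 39 at an adjusted p of 0.05 (Tubb3 and Stmn2) and limma voom with quality weights called 8 (Tuba1a, Tuba1c, Tubb2a, Tubb3, Tubb5, Stmn2 and Mapre2 higher, Kif5b lower), but these tools also called 2.87% and 6.57% of all genes tested.

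The 4 classes differed in where their members lay. All 12 tubulins had a higher mean in KO, with a median log2 difference (KO minus WT) of 0.45, or 1.37-fold, against 0.021 over all genes tested. Stathmins and microtubule-associated proteins were split, 6 higher and 6 lower, with a median of 0.038. Dynein and dynactin subunits had 5 means higher and 2 lower, with a median of 0.12. Kinesin chains had 2 higher and 6 lower, with a median of -0.18. That kinesin median was -0.11 without KO 5 and -0.29 without KO 3, and the median of stathmins and microtubule-associated proteins was -0.044 without WT 2 and 0.12 without WT 5. The differences between classes are descriptions and were not tested.

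**Figure D1:**
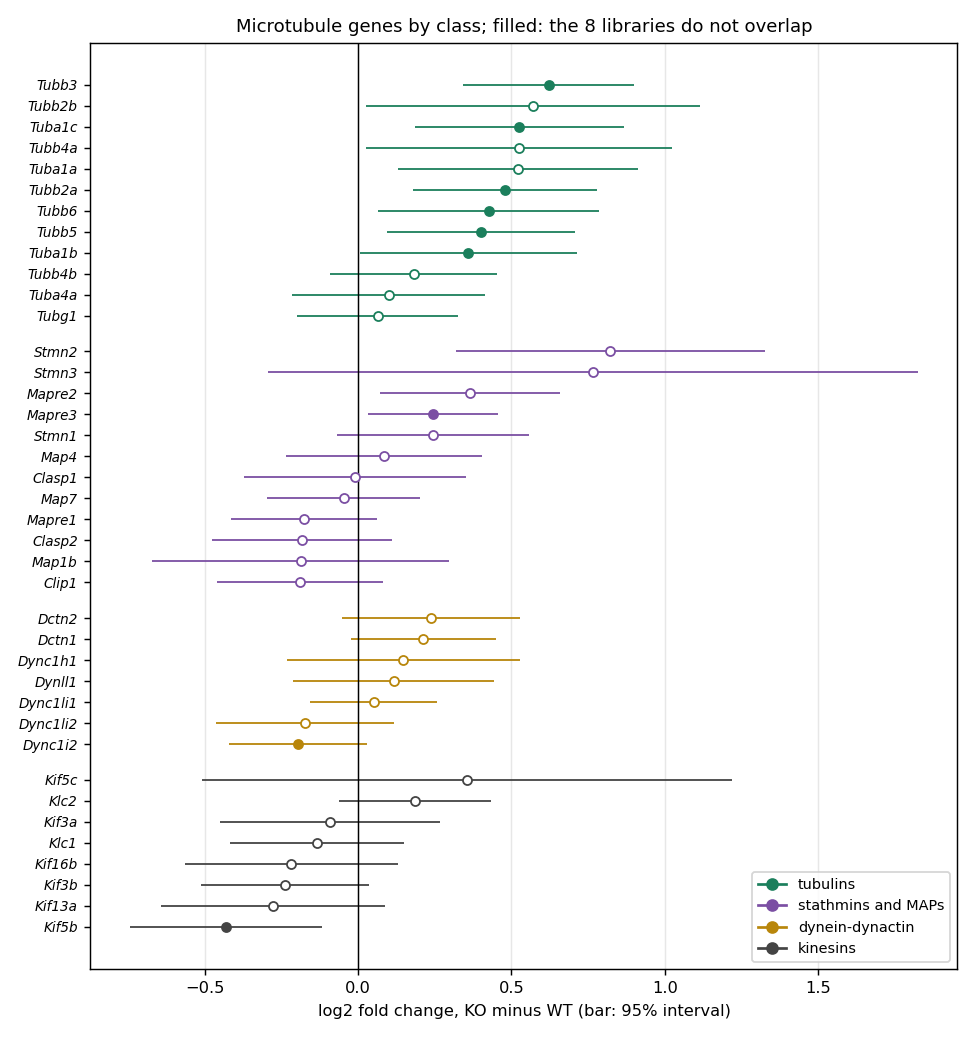
Log2 difference, KO minus WT, of each of the 39 microtubule genes by class (horizontal axis), with bars for the 95% interval of edgeR's fit; filled points mark genes whose 4 WT and 4 KO libraries did not overlap. The 12 tubulins lie right of 0, and 3 of their intervals hold 0, whereas 7 of 8 kinesin intervals hold 0.

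Alpha-tubulin in these molars came mostly from Tuba1a and Tuba1b, followed by Tuba1c. The coding sequences of Tuba1a and Tuba1b are 98.3% identical (GENCODE M21, GRCm38). Of all stretches of 50 bases in the exons of Tuba1a, 75.5% also occur in another gene, as do 75.1% of those in Tuba1b and 52.7% of those in Tuba1c, among them each other and several pseudogenes. How the authors' counting dealt with reads that match more than 1 of these genes is not given in the sources used here, so the split between these genes is uncertain and their sum is the firmer value.

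The summed level of Tuba1a, Tuba1b, Tuba1c and Tuba4a was 497 to 633 CPM in WT and 638 to 965 CPM in KO, so the groups did not overlap in CPM. Scaled by gene length (TPM, described below), the sum in WT 5 was 1013.5, above KO 1 at 1007.9 and KO 3 at 998.7. On that scale the groups overlapped. Tuba1a, the isotype abundant in developing neurons and many embryonic tissues, had 179.7, 192, 229.8 and 306 CPM in WT 2, 3, 4 and 5 and 294, 277, 336 and 395 CPM in KO 1, 3, 4 and 5. WT 5, the highest WT library, lay above KO 1 and KO 3. Its log2 difference was 0.52 (SE 0.18, edgeR adjusted p = 0.22). Tuba1b, a ubiquitous isotype, had 207, 221, 213 and 217 CPM in WT and 251, 227, 240.5 and 383 CPM in KO in the same order of libraries. Here the groups did not overlap, but the gap between WT 3 and KO 3 was small and KO 5 stood far above the other KO libraries. The log2 difference was 0.36 (SE 0.16, edgeR adjusted p = 0.31), and 0.12 without KO 1 and KO 5. Tuba1c, the third ubiquitous isotype, had 67.5, 72.97, 69.6 and 73.02 CPM in WT and 101, 80.3, 87.5 and 139 CPM in KO, and the groups did not overlap. Its log2 difference was 0.53 (SE 0.16, edgeR adjusted p = 0.17), 0.34 without KO 5 and 0.24 without KO 1 and KO 5. Tuba4a, an isotype known from muscle, platelets and neurons, had 46.5 ± 7.502 CPM in WT and 49.9 ± 7.33 CPM in KO (mean ± SD, n = 4 each), and its 95% interval on the log2 scale ran from -0.21 to 0.42. On the opposite strand Stk16, with 129% as many reads, overlaps 37.3% of the exon bases of Tuba4a, and without a known strand setting the reads of these genes cannot be told apart.

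Beta-tubulin transcripts summed to 767 to 924 CPM in WT and 961 to 1326 CPM in KO, again without overlap in CPM. In TPM the sum was 1135.5 in WT 5 and 1118.6 in KO 1, so the groups overlapped on that scale. Tubb5, the most abundant beta-tubulin and a ubiquitous isotype of dividing cells, had 415, 425, 460.3 and 525 CPM in WT 2, 3, 4 and 5 and 556, 582, 543 and 728 CPM in KO 1, 3, 4 and 5. In CPM all 4 KO libraries exceeded the highest WT library (log2 difference 0.40, SE 0.14, edgeR adjusted p = 0.23). In TPM the groups overlapped, since Tubb5 made up 43.1% of the larger sum in WT 5 and 42.3% of that in KO 1. Only 0.0892% of the 50-base stretches of Tubb5 occur in another gene, so this value does not hinge on reads shared between isotypes. Tubb6, an isotype of non-neuronal tissue and regenerating muscle, had 122, 126, 104 and 119 CPM in WT and 133, 139, 139 and 223 CPM in KO. The groups did not overlap in CPM, and KO 5 alone was far above the rest. In TPM WT 2 lay just above KO 1. The log2 difference was 0.43 (SE 0.17, edgeR adjusted p = 0.26), and 0.22 without KO 5. Tubb4b, the isotype prominent in cilia, had 157, 176, 182 and 199.6 CPM in WT and 201, 192, 179 and 238 CPM in KO. These ranges overlapped, and the log2 difference was 0.18 with a 95% interval from -0.092 to 0.45. It was 0.026 after a correction of each library for GC content and gene length. Of the 50-base stretches of Tubb4b, 41.3% also occur in another gene, Tubb4b-ps1 foremost, so its level and share are uncertain.

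Tubb3, the class III beta-tubulin used as a marker of neurons and made by some other cells, had the smallest adjusted p of the 39 genes. It lies at chr8:123411424-123422015 on the plus strand (GRCm38), and none of its 50-base stretches occur in another gene. Its levels were 32.9, 36.7, 38.1 and 29.95 CPM in WT 2, 3, 4 and 5 and 48.6, 56.2, 45.2 and 61.9 CPM in KO 1, 3, 4 and 5. The lowest KO library, KO 4, was above the highest WT library, WT 4. The log2 difference was 0.62 (SE 0.13, 95% interval 0.34 to 0.90), with an adjusted p of 0.085 by edgeR, 0.0027 by DESeq2 and 0.012 by limma voom. Over the alternatives computed the difference ranged from 0.39 with Xist as a covariate to 0.69 without KO 4.

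Tubb2a and Tubb2b, isotypes of nerve and many developing tissues, are neighbours on chromosome 13 with coding sequences 96.5% identical. Of the 50-base stretches of Tubb2a, 49.6% also occur in another gene, as do 36.9% of those of Tubb2b, chiefly in each other. The split between these 2 genes is therefore uncertain. The last 60 coding bases of both are shown as a stretch in which they differ (capitals mark the 3 positions that differ, GENCODE M21, GRCm38, minus strand, chr13:34074468-34074527 for Tubb2a and chr13:34127471-34127530 for Tubb2b).
Tubb2a: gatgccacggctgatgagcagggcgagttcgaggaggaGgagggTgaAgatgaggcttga
Tubb2b: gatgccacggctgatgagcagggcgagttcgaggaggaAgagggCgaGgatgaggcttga
Tubb2a had 31.4, 31.98, 36.3 and 40.3 CPM in WT and 41.5, 51.2, 43.1 and 59.4 CPM in KO, without overlap in CPM (log2 difference 0.48, SE 0.14, edgeR adjusted p = 0.17). In TPM WT 5 lay above KO 1 for Tubb2a. Tubb2b was scarcer, at 6.201, 4.87, 6.598 and 5.82 CPM in WT and 4.704, 12.5, 8.15 and 9.41 CPM in KO. KO 1 was the lowest of the 8 libraries for Tubb2b and KO 3 the highest, so the groups overlapped (log2 difference 0.57, SE 0.25, edgeR adjusted p = 0.30). Tubb4a, an isotype of neurons and oligodendrocytes, had 2.602, 3.39, 3.798 and 3.79 CPM in WT and 4.98, 5.002, 3.22 and 6.395 CPM in KO. KO 4 lay within the WT range (log2 difference 0.53, SE 0.23, edgeR adjusted p = 0.30). Tubg1, the nucleating gamma-tubulin, had 24.03 ± 1.99 CPM in WT and 25.1 ± 3.11 CPM in KO. Its log2 difference had a 95% interval from -0.20 to 0.33.

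**Figure D2:**
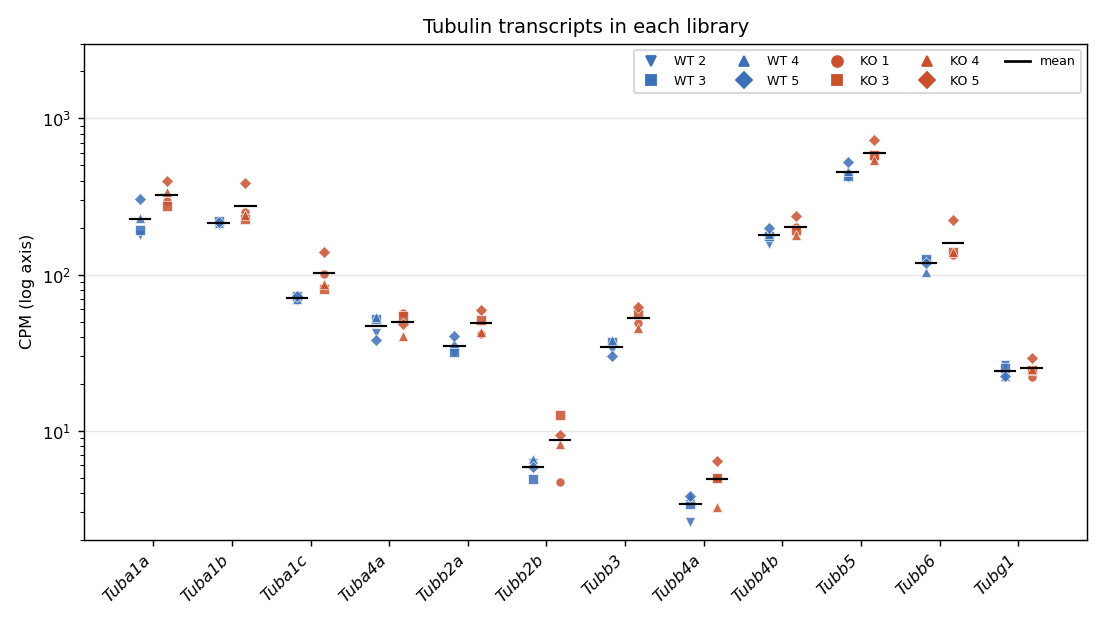
Level of each tubulin transcript in CPM (log axis) in the 4 WT libraries (blue) and the 4 KO libraries (red), 1 symbol per library and a bar at the group mean. KO 5 (red diamond) was the highest of the 8 libraries for 10 of the 12 tubulins, and WT 2 (blue inverted triangle) the lowest for 7.

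Of the 12 tubulins, 9 had an unadjusted p under 0.05, all with the higher mean in KO (Tuba1a, Tuba1b, Tuba1c, Tubb2a, Tubb2b, Tubb3, Tubb4a, Tubb5 and Tubb6), and in 6 the groups did not overlap (Tuba1b, Tuba1c, Tubb2a, Tubb3, Tubb5 and Tubb6). The count was chosen after the values were seen, and it was sensitive to single libraries. It was 6 without KO 5, with 7.97% of all genes then passing in that direction, and 6 without KO 1 and KO 5 together (6.55%). Leaving out WT 2 left 4 (6.04% of all genes), with the median log2 difference at 0.41. It was 5 after a correction of each library for GC content and gene length (7.18% of all genes), and 0 with Xist as a covariate (3.05% of all genes), where the median log2 difference of the tubulins was 0.24. The number of tubulins with groups that did not overlap stayed at 6 without KO 5, where 7.11% of all genes tested lay apart in that direction. Under all 20 alternatives 10 of the 12 had the higher fitted level in KO. The exceptions were Tuba4a, which turned with limma voom, with Xist as a covariate and with libraries numbered 3, 4 and 5 alone, and Tubg1, which turned with limma voom, without KO 5 and after the GC and length correction.

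Per length (TPM, the share of all transcripts, computed from the counts and the authors' gene lengths), the alpha-tubulin with the highest mean was Tuba1a, at 361 ± 116 TPM in WT and 513 ± 56.5 TPM in KO. Tuba1b followed at 325 ± 31.4 TPM in WT and 413 ± 60.7 TPM in KO, and in WT these neighbours did not differ beyond their spread. Tuba1c was at 87.9 ± 9.22 TPM in WT and Tuba4a at 35.3 ± 3.45 TPM. Among beta-tubulins the order in WT was Tubb5 (391 ± 73.7 TPM), Tubb4b (243 ± 38.1 TPM), Tubb6 (191 ± 25.5 TPM), Tubb2a (62.1 ± 12 TPM) and Tubb3 (52.04 ± 4.03 TPM). Tubb2a and Tubb3 lay within their spread of each other, and Tubb2b and Tubb4a were below 10 TPM. Tubb5 was the leading beta-tubulin in every library, whereas Tuba1b was ahead of Tuba1a in WT 2 and WT 3 and behind it in the other 6 libraries. Tuba1a made up 43.8 ± 5.8% of alpha-tubulin transcripts in WT and 47.1 ± 3.1% in KO, and Tubb5 made up 41.0 ± 1.7% of beta-tubulin transcripts in WT and 41.9 ± 0.77% in KO (mean ± SD, n = 4 each). Tubb4b had a share of 25.6 ± 0.91% in WT and 22.5 ± 1.3% in KO, with KO 1 (24.4%) just inside the WT range of 24.2% to 26.2%. Tubb3 had 5.55 ± 0.81% of beta-tubulin transcripts in WT and 6.57 ± 0.47% in KO, and every KO library (6.18% to 7.24%) was above the highest WT library (6.14%). These shares are descriptions with no test.

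RefSeq promoter windows (GRCm38.p6) were at hand for 29 of the 39 genes, 9 of them tubulins. The 150 bases before the annotated start are shown for Tubb2a, whose groups did not overlap in CPM, and for Tubb4b, whose groups did. These were picked because their core elements differ. Capitals mark matches, on either strand, to the letters CCAAT of the CCAAT box, to GGGCGG of the GC box, to TATAAA of the TATA box and to the cAMP response element TGACGTCA. No matches overlap each other in these windows. Both windows are on the minus strand, at chr13:34078009-34078158 for Tubb2a and chr2:25224703-25224852 for Tubb4b.
Tubb2a: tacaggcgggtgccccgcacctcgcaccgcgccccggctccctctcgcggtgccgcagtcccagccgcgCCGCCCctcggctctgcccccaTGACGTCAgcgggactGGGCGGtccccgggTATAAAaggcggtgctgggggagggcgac
Tubb4b: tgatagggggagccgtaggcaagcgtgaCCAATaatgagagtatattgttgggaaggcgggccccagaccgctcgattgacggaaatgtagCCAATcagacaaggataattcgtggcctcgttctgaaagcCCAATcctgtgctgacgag
Within 250 bases before the start, CCAAT occurred in 5 of the 9 tubulin windows (Tuba1a, Tuba1c, Tubb3, Tubb4b and Tubb5), or 55.6%, against 33.9% of all 32851 windows. GGGCGG occurred in 6 of the 9 (66.7%, against 32.7% of all windows), and TATAAA and TGACGTCA each in Tubb2a alone (11.1%, against 12.4% and 1.55% of all windows). Of the tubulins with CCAAT, Tuba1c, Tubb3 and Tubb5 had groups that did not overlap in CPM, and Tuba1a and Tubb4b had groups that did. A relation between these elements and the differences was not tested. A match describes these letters and is not shown to be a bound site.

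The 3 stathmins had higher means in KO. Their summed level was 57.4 to 67.2 CPM in WT and 73.9 to 117.5 CPM in KO, without overlap in CPM. In TPM the sum was higher in WT 2 than in KO 1, so the groups overlapped on that scale. Stmn1, the stathmin of proliferating cells, had 42.4 ± 5.85 CPM in WT and 50.3 ± 8.81 CPM in KO, and its 95% interval on the log2 scale ran from -0.068 to 0.56. Stmn2, the stathmin of growing axons, had the largest log2 difference of the 39 genes. It was read at 19.05, 17.5, 16.1 and 25.7 CPM in WT 2, 3, 4 and 5 and at 22.8, 32.03, 31.3 and 52.3 CPM in KO 1, 3, 4 and 5. KO 1 fell below WT 5, and KO 5 was the highest library. The log2 difference was 0.82 (SE 0.23, edgeR adjusted p = 0.16), 0.56 without KO 5, and its adjusted p was 0.038 by DESeq2 and 0.013 by limma voom. Stmn3, another neuronal stathmin, was near the detection limit, at 2.49, 0.6205, 1.85 and 0.678 CPM in WT and 0.9298, 3.85, 2.26 and 2.496 CPM in KO, and its 95% interval from -0.29 to 1.82 leaves its direction unresolved.

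Among the structural microtubule-associated proteins, Map4, the ubiquitous stabiliser of non-neuronal cells, was the most abundant, at 314, 333, 360.4 and 448 CPM in WT and 397, 405, 421 and 321 CPM in KO. WT 5 was the highest of the 8 libraries and WT 2 the lowest, so the groups overlapped throughout (95% interval -0.23 to 0.40 on the log2 scale). Map1b, which stabilises axonal microtubules, had 132 ± 11.4 CPM in WT and 116 ± 41.9 CPM in KO. KO 3 was at 166 CPM and KO 5 at 64.2 CPM. Its KO libraries thus spread on both sides of all 4 WT libraries. Map7, the epithelial protein that recruits kinesin-1 to microtubules, had 58.5 ± 3.62 CPM in WT and 56.6 ± 7.26 CPM in KO, and the 95% interval of its log2 difference ran from -0.30 to 0.20.

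The 6 plus-end proteins were split, with 2 means higher and 4 lower in KO. Mapre1, Mapre2 and Mapre3 encode EB1, EB2 and EB3, which bind growing tips and recruit other proteins there. Mapre3 had 48.3, 52.5, 51.03 and 51.4 CPM in WT 2, 3, 4 and 5 and 65.7, 62.7, 56.4 and 56.05 CPM in KO 1, 3, 4 and 5, without overlap in CPM (log2 difference 0.24, SE 0.098, edgeR adjusted p = 0.27). In TPM its KO 5 value lay within the WT range. Mapre2 had 30.3, 26.9, 26.3 and 38.3 CPM in WT and 40.4, 35.2, 38.4 and 42.5 CPM in KO, where WT 5 lay above KO 3 (log2 difference 0.36, SE 0.13, edgeR adjusted p = 0.24). Mapre1, per length the most abundant of the 3 at 89.3 ± 8.38 TPM in WT, had 246 ± 17.7 CPM in WT and 218 ± 12.03 CPM in KO, and its 95% interval ran from -0.41 to 0.061. Clip1, the tip-bound linker CLIP-170, had 103 ± 6.83 CPM in WT and 90.4 ± 14.01 CPM in KO. Clasp1 and Clasp2, which rescue shrinking microtubules, had 81.04 ± 12.2 and 58.1 ± 7.19 CPM in WT and 80.5 ± 17.9 and 51.1 ± 7.78 CPM in KO. The intervals of Clip1, Clasp1 and Clasp2 held 0.

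Several of these genes are best known from neurons, so they were set beside markers of neurons and axons. Of 14 such markers tested, 8 had a higher and 6 a lower mean in KO, and their summed level was 38.0 to 57.7 CPM in WT and 43.9 to 62.8 CPM in KO, highest in KO 3. The neuronal nuclear gene Rbfox3 was read at 0.71 to 1.56 CPM across the libraries, 7 of the 14 had means below 2 CPM in both groups, and none of the tested markers was at 0 in any library. Gap43, a protein of growth cones, had 4.15, 4.105, 3.94 and 3.84 CPM in WT and 5.14, 8.76, 4.696 and 7.59 CPM in KO, without overlap. Uchl1, a neuronal ubiquitin hydrolase, had 9.8, 9.35, 12.2 and 9.27 CPM in WT and 13.7, 15.5, 13.6 and 19.2 CPM in KO, also without overlap. The neurofilament genes Nefm, Nefh and Nefl had lower means in KO, with log2 differences of -1.19, -0.47 and -0.33, as did the synaptic gene Snap25 (-0.19). Their groups overlapped, and Nefm, at 0.7198, 1.72, 4.75 and 0.961 CPM in WT and 0.109, 1.38, 0.967 and 1.09 CPM in KO, had the largest difference of the 14, from 2 to 100 reads a library. Nefl and Nefm overlap on opposite strands, so their reads cannot be told apart with certainty. Kif5c and 2 genes outside the 39, the axonal kinesins Kif5a and Kif1a, peaked in KO 3 at 9.73, 17.2 and 26.3 CPM, as did Tubb2b and Stmn3, whereas Tubb3 and Stmn2 were highest in KO 5. In whole tissue, more cells of a type and more RNA per cell cannot be told apart. The 9 Schwann cell markers tested had higher means in KO (142 to 164.56 CPM summed in WT, 164.58 to 199.9 CPM in KO), as did the 10 mesenchyme markers (3148 to 5031 CPM summed in WT, 4844 to 7065 CPM in KO) and the 8 macrophage markers (202 to 222 CPM in WT, 244 to 320.5 CPM in KO). The 9 oral keratinocyte markers tested had lower means in KO (671 to 1290 CPM summed in WT, 541 to 804 CPM in KO). Means were higher in KO for 6 of 6 osteoclast, 7 of 7 skeletal muscle, 6 of 9 odontoblast and bone, 5 of 7 erythroid, 4 of 8 endothelial and mural, and 6 of 12 ameloblast markers. The part of these cells in the tubulin and stathmin differences was not tested.

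**Figure D3:**
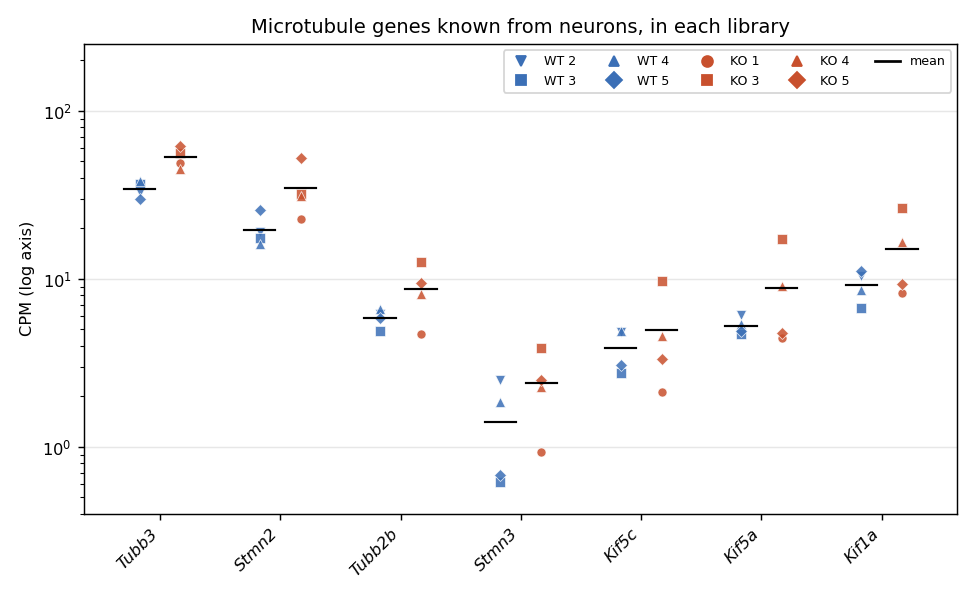
Level in CPM (log axis) of 7 microtubule genes known from neurons, in each WT library (blue) and KO library (red), with a bar at the group mean. KO 3 (red square) was highest for Tubb2b, Stmn3, Kif5c, Kif5a and Kif1a, and KO 5 (red diamond) for Tubb3 and Stmn2.

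Dynein and dynactin subunits had log2 differences between -0.20 and 0.24. None of the 7 subunits had an unadjusted p under 0.05, and for 5 of them the 95% interval lay within 0.5 of 0 on the log2 scale. Dync1h1, the motor heavy chain, had 336, 325, 323 and 426 CPM in WT 2, 3, 4 and 5 and 431, 457, 407 and 266 CPM in KO 1, 3, 4 and 5. WT 5 was well above the other WT libraries and KO 5 was the lowest of all 8, so the groups overlapped (95% interval -0.23 to 0.53). Dync1i2, the intermediate chain that binds dynactin, was the subunit whose groups did not overlap in CPM, but in TPM KO 3 lay above WT 3. Its levels were 182, 189.7, 212 and 193 CPM in WT and 177, 177, 163 and 162 CPM in KO, all KO libraries being lower (log2 difference -0.20, SE 0.10, edgeR adjusted p = 0.37). After the GC and length correction that log2 difference was 0.011. The light intermediate chains Dync1li1 and Dync1li2, which link the motor to cargo adaptors, had 79.01 ± 4.03 and 205 ± 16.7 CPM in WT and 81.9 ± 4.33 and 182 ± 27.7 CPM in KO. Dynll1, the light chain LC8, had 208 ± 13.7 CPM in WT and 225 ± 50.8 CPM in KO, where KO 5 was at 301 CPM and the other KO libraries at 191 to 209 CPM. The dynactin subunits Dctn1 (p150Glued, which binds the microtubule) and Dctn2 (dynamitin) had 186 ± 10.3 and 126 ± 5.901 CPM in WT and 216 ± 16.3 and 149 ± 28.01 CPM in KO. Their log2 differences had 95% intervals from -0.022 to 0.45 and from -0.053 to 0.53.

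Kinesin transcripts summed to 713 to 811 CPM in WT and 588 to 717 CPM in KO, so in CPM only KO 3 reached the WT range. In TPM KO 3 and KO 4 both lay within the WT range. Kif5b, the ubiquitous kinesin-1 heavy chain that moves lysosomes, mitochondria and secretory vesicles outward, had 253, 253, 254 and 224 CPM in WT 2, 3, 4 and 5 and 176, 209.7, 207 and 137 CPM in KO 1, 3, 4 and 5. In CPM every KO library was below every WT library. In TPM Kif5b was at 94.3 ± 9.37 in WT and 71.9 ± 19.9 in KO, and the groups overlapped, KO 3 and KO 4 lying above WT 3. The log2 difference was -0.43 (SE 0.14, 95% interval -0.74 to -0.12, edgeR adjusted p = 0.21), and -0.32 without KO 5. It kept its sign under all 20 alternatives, from -0.51 without KO 3 to -0.24 without KO 1 and KO 5, and its adjusted p was 0.079 by DESeq2 and 0.038 by limma voom. Kif5c, the neuronal kinesin-1 heavy chain, had 4.82, 2.77, 4.89 and 3.05 CPM in WT and 2.13, 9.73, 4.56 and 3.33 CPM in KO, and its log2 difference of 0.36 became -0.22 without KO 3. The kinesin-1 light chains Klc1 and Klc2, which bind cargo, had 246 ± 35.4 and 47.2 ± 2.85 CPM in WT and 224 ± 18.6 and 53.7 ± 6.97 CPM in KO. Per length, Klc1 was the most abundant of the 8 chains, at 171 ± 26.8 TPM in WT and 157 ± 11.4 TPM in KO.

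Of the other kinesins none had an unadjusted p under 0.05, and their 95% intervals held 0. Kif3a and Kif3b, the motor pair of kinesin-2 that builds cilia, had 23.5 ± 1.35 and 57.9 ± 2.96 CPM in WT and 22.05 ± 5.73 and 49.04 ± 7.96 CPM in KO. Kif13a, a kinesin-3 that moves recycling endosomes, had 106, 104, 103 and 101 CPM in WT and 99.4, 105, 81.7 and 56.2 CPM in KO. The WT libraries lay close together, and KO 3 was inside their range while KO 5 was far below it (95% interval -0.64 to 0.087). Kif16b, which carries early endosomes, had 34.9 ± 2.86 CPM in WT and 30.01 ± 7.15 CPM in KO. KO 5 was the lowest of the 8 libraries for 4 of the 8 kinesin chains, the reverse of its place among tubulins.

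**Figure D4:**
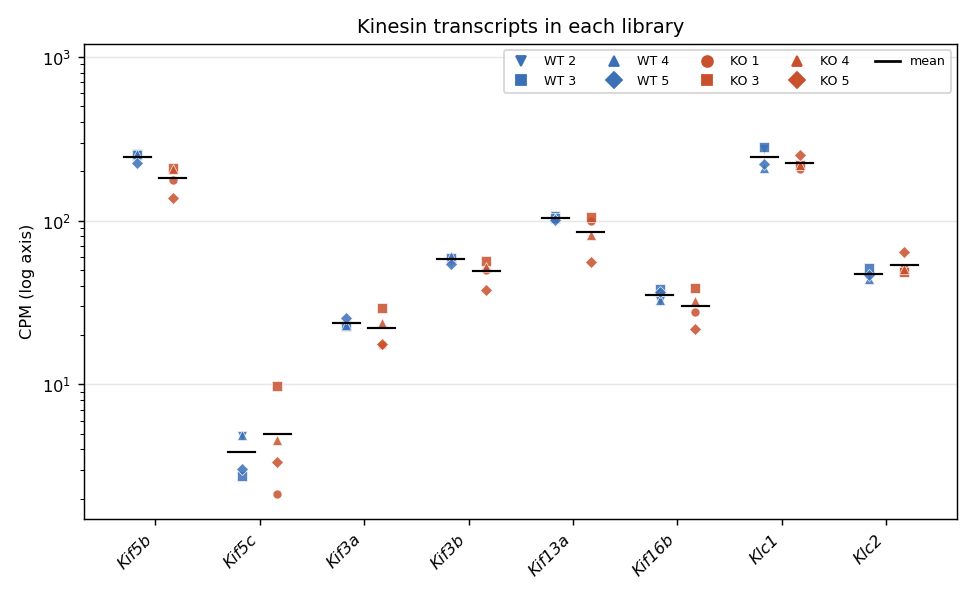
Level of the 8 kinesin chains in CPM (log axis) in each WT library (blue) and KO library (red), with a bar at the group mean. For Kif5b all 4 KO libraries (137 to 209.7 CPM) lie below the 4 WT libraries (224 to 254 CPM), whereas KO 3 (red square) is at 9.73 CPM for Kif5c.

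The classes also differed in gene length and base composition. Tubulin genes had a median exon length of 2158 bases and a median GC content of 55.2%, against 4073 bases and 49.7% over all genes tested. Kinesins had a median of 6388.5 bases, dynein and dynactin subunits 6027 bases, and stathmins with microtubule-associated proteins 9068.5 bases. Across the 39 genes the log2 difference went down with length (Spearman rho -0.66, genes sharing the same 8 libraries, no test), against -0.22 across all 16205 genes. Without KO 5 the values were -0.49 across the 39 and -0.0089 across all genes tested. KO 5 minus the mean of the other KO libraries had a rho with length of -0.75 across the 39 and -0.47 across all genes tested. By library, the deviation of all genes from the mean had a rho with GC content of -0.42 to -0.16 in WT and -0.051 to 0.37 in KO. After the correction of each library for GC content and length, the median log2 difference of the tubulins was 0.31, of the kinesins -0.19, of the dynein and dynactin subunits 0.046, and of the stathmins and microtubule-associated proteins 0.099.

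**Figure D5:**
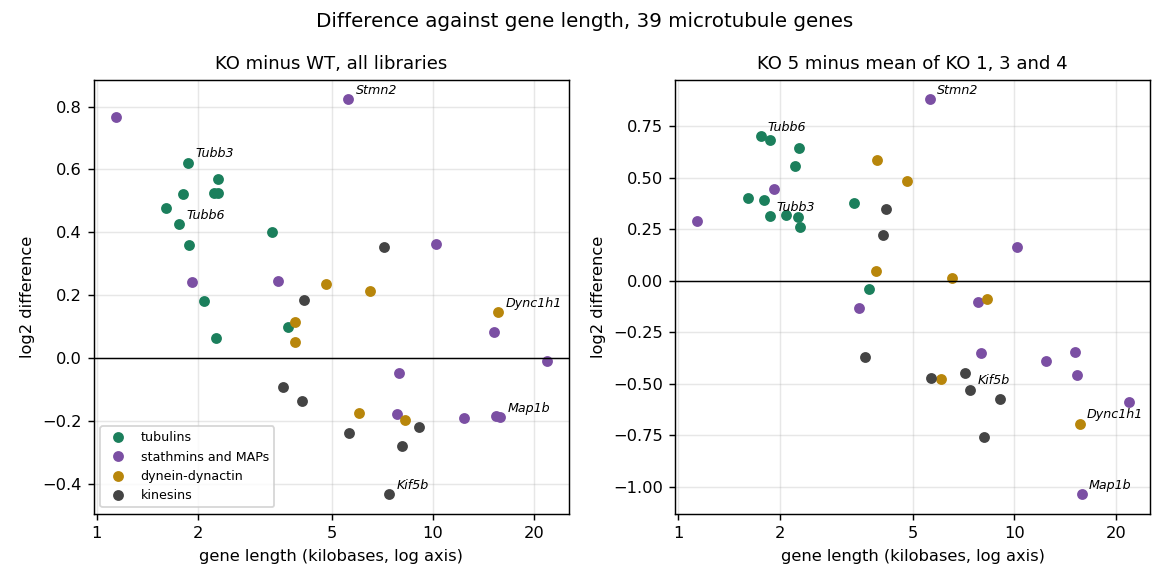
Log2 difference against exon length in kilobases (log axis) for the 39 microtubule genes coloured by class, as KO minus WT over all libraries (left) and as KO 5 minus the mean of KO 1, 3 and 4 (right). Short tubulin genes lie above 0 in both panels except Tuba4a on the right, and the long genes Map1b and Dync1h1 lie at -1.03 and -0.69 on the right.

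Beyond the 39, a further 143 genes of the microtubule system were listed, of which 137 were tested. None passed an adjusted p of 0.05 by edgeR. At an unadjusted p under 0.05, 12 had a higher (8.76%) and 14 a lower mean in KO (10.2%), against 8.70% and 6.98% of all genes tested, and the median log2 difference of the 137 was 0.0093. Of 11 other tubulins and tubulin-folding factors tested, none reached that limit. Tbcb, a folding cofactor for alpha-tubulin, had 53.9, 58.5, 52.6 and 55.2 CPM in WT and 68.7, 50.4, 58.8 and 119 CPM in KO, where KO 5 was high. Of 8 genes of the gamma-tubulin ring complex, which nucleates microtubules, 2 had lower means at that limit. Nedd1, its targeting subunit, had 27.6, 25.8, 28.8 and 26 CPM in WT and 24.2, 24.5, 19.98 and 21.9 CPM in KO (log2 difference -0.26, edgeR adjusted p = 0.29), and Tubgcp4 had a log2 difference of -0.41 (edgeR adjusted p = 0.30). Of 20 genes of tubulin modification, 3 had higher means at that limit. Vash2, a carboxypeptidase that removes the terminal tyrosine of alpha-tubulin, had 7.09, 5.202, 5.17 and 5.65 CPM in WT and 7.93, 8.72, 7.83 and 9.15 CPM in KO, without overlap (log2 difference 0.54, edgeR adjusted p = 0.16). Ttll12 and Hdac6, the tubulin deacetylase, had log2 differences of 0.39 and 0.29 (edgeR adjusted p = 0.23 and 0.28).

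Of 25 other microtubule-associated and plus-end proteins, 4 had higher and 5 lower means at an unadjusted p under 0.05. Over all genes tested, 8.70% were higher and 6.98% lower at that limit, the shares to set beside each count in this paragraph. Tppp, which bundles microtubules, had 46.2, 42.1, 45.5 and 35.9 CPM in WT 2, 3, 4 and 5 and 23.1, 27.99, 30.9 and 20.9 CPM in KO 1, 3, 4 and 5. All KO libraries were below all WT libraries, with a log2 difference of -0.72 (SE 0.14, edgeR adjusted p = 0.08). Map1a, an axonal and dendritic stabiliser, and Slain1, a plus-end protein, had log2 differences of 0.67 and 0.61 (edgeR adjusted p = 0.15 and 0.16). The severing enzyme Spast had a lower mean at that limit, with a log2 difference of -0.25. Of 31 other dynein, dynactin and adaptor genes, 2 had higher and 5 lower means at that limit, among them the light chains Dynlt1a (0.49) and Dynlt3 (-0.38) and the adaptor Bicd2 (-0.32), all on the log2 scale. Of 22 other transport kinesins, 2 had higher means at that limit, the light chain Klc4 (0.27 on the log2 scale, groups that did not overlap) and Kif1a (0.72). Of 14 mitotic kinesins, 1 had a lower mean at that limit, Kif18a, at 5.703, 4.92, 4.89 and 4.86 CPM in WT and 2.95, 3.99, 4.097 and 2.55 CPM in KO (log2 difference -0.58, edgeR adjusted p = 0.21). Of the 10 proliferation markers, 9 had a higher and 1 a lower mean in KO, with a median log2 difference of 0.083, and none reached that limit.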

How the data were processed

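The authors deposited 1 table of read counts per Ensembl gene, whole numbers that were not normalised, with gene lengths beside them. PolyA RNA was captured before library preparation, per the labels' protocols. CASAVA and the build mm39 are named in the submitters' processing notes, but 98.3% of the gene IDs shared with GENCODE M21 carry its GRCm38 start and end, and coordinates are given on GRCm38. Which aligner and counter were used, and whether counting respected strand, is not given in the sources used here.

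Low counts were removed with filterByExpr at a minimum count of 10 and a minimum total of 15. The 16205 genes kept, of 54532, held at least 99.8% of the reads. CPM were computed with TMM scaling, and TPM from the authors' gene lengths. The main test of KO against WT was the robust two-sided quasi-likelihood test of edgeR 4.0.16 in R 4.3.3, fitted on all 8 libraries without covariates. Its p-values were adjusted by Benjamini-Hochberg over the 16205 genes, with a threshold of 0.05. SE is the size of the log2 difference over the square root of F. The test was run on simulated data first. DESeq2 1.42.0 and limma 3.58.1 (voom) served as alternatives, beside other scalings and filters, covariates and libraries left out. Replicate numbers shared by WT and KO were not used to pair the libraries in the main test.

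The 39 genes, the other lists and most alternatives were chosen with earlier results of these data known. Genes with an unadjusted p under 0.05, or with groups that did not overlap, were to be given with all 8 values, the others by class, range and counts with the most abundant of each class, and up to 3 genes with the smallest p from each list of other microtubule genes. Further genes outside the 39 (Tbcb, Kif5a, Gap43, Uchl1, Rbfox3, Snap25, Nefl, Nefm and Nefh) were named after their values were seen. Marker lists for osteoclasts, odontoblasts and bone, skeletal muscle, endothelial and mural cells and erythroid cells were also computed.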

Additional observations from a re-analysis of the deposited data

Results flagged for a closer look

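In 7 of the 78 sets of 4 libraries (39 genes in 2 groups), 1 library stood far from the other 3, which chance gives in about 1 of 20 such sets. KO 5 was the library in 4 of the 7. Tuba1b was at 383 CPM in KO 5 against 227 to 251 CPM in the other KO libraries, and Tubb6 at 223 CPM against 133 to 139 CPM. Dynll1 was at 301 CPM in KO 5 against 191 to 209 CPM, and Dync1li2, a longer gene, at 141 CPM against 192 to 198 CPM. WT 5 was the library in the other 3. It held 426 CPM of Dync1h1 against 323 to 336 CPM in the other WT libraries, 224 CPM of Kif5b against 253 to 254 CPM, and 25.5 CPM of Kif3a against 22.6 to 23.0 CPM.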

How the results depend on the processing

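The count of the 39 genes past an adjusted p of 0.05 was 0 by edgeR and stayed 0 with each library left out in turn. It was 1 without the low-count filter, 2 with DESeq2 and 8 with limma voom. Over all genes, 5 passed in edgeR, 2 with library totals only, 241 without the filter, 465 with DESeq2, 1065 with limma voom, 0 to 55 with each library left out, 11 without KO 1 and KO 5, 1 with Xist as a covariate and 13 after the GC and length correction. Replicate numbers 3, 4 and 5 occur in both groups, but libraries of the same number did not deviate together (correlations -0.14, -0.092 and -0.12). With the replicate block on those numbers 1 gene passed, and 1 without the block, none of the 39 in either fit.

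Tubulins at an unadjusted p under 0.05 numbered 9, where 8.70% of all genes tested passed in that direction. They were 4 to 8 with each library left out (4 without WT 2), where 5.76% to 10.1% of all genes passed in that direction, 6 with the replicate block (4.20%), 5 with the same 6 libraries and no block (5.48%, a fit chosen after the data were seen), 5 after the GC and length correction and 0 with Xist as a covariate. Their median log2 difference of 0.45 was 0.32 to 0.51 with each library left out, 0.26 without KO 1 and KO 5 and 0.24 with Xist. The dynein and dynactin median of 0.12 was 0.059 with library totals, 0.023 with limma voom, 0.040 to 0.13 with each library left out, -0.00055 without KO 1 and KO 5, 0.053 with the replicate block, 0.074 without it, 0.061 with Xist and 0.046 after the correction. The median of stathmins and microtubule-associated proteins, 0.038, was -0.044 to 0.12 with each library left out and 0.15 without KO 1 and KO 5, and it crossed 0 with library totals (-0.0030). The kinesin median of -0.18 was -0.29 to -0.11 with each library left out and -0.041 without KO 1 and KO 5. As shares of reads, without regard to length, Tuba1a made up 43.5% of alpha-tubulin in KO, and Tubb5 54.8% of beta-tubulin in WT and 55.9% in KO. Of the 39 genes, 25 kept the sign of their difference under all 20 alternatives. The causes of these shifts were not tested. Stmn3, Kif5c, Tubb4a and Tubb2b had the fewest reads of the 39, from 12 (Stmn3 in WT 5) to 273 (Tubb2b in KO 3), which limits how far their values can be read.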
